A study of Mus musculus with 38 samples.

Results

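JGEO cells were compared with JGE cells at day 7 of reprogramming without BMP4, that is, cells of the same factor set with and without Oct4. The comparison rests on 2 of the 38 samples of the series, 1 bulk RNA-seq library a side, and covers the 14116 genes with an FPKM (fragments per kilobase of transcript, scaled to the mapped fragments of the library) of at least 1 in either library. Both cultures were mouse embryonic fibroblasts (MEFs) of E13.5 that carried retroviral Jdp2, Glis1 and Esrrb and grew in iCD3, a medium with vitamin C, LIF, bFGF, the GSK3 inhibitor CHIR99021, the DOT1L inhibitor SGC0946, an LSD1 inhibitor and Y27632. JGEO cells also received Oct4, and neither culture received Sall4 or BMP4. The label's growth protocol names the JGES virus for all cultures, and the factor sets are taken here from the sample titles. The MEFs came from mice with a GFP reporter of Oct4 crossed to 129S4/SvJaeJ, and each library is 1 bulk culture that can hold reprogrammed and other cells. A further 2 pairs that share no library with this one are used for comparison: JGEO against JGE at day 7 with 10 ng/ml BMP4, and JGESO against JGES, which both carry Sall4, at day 7 without BMP4.

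Oct4, encoded by Pou5f1, is a POU-domain transcription factor of the early embryo and of embryonic stem cells, where it binds the octamer and, with SOX2, a joined SOX and POU element near many pluripotency genes. Cells that reach pluripotency switch on a network of transcription factors that keep each other active, among them Nanog, Sox2, Klf2 and Tfcp2l1, and shut down the matrix and contractile genes of fibroblasts. Esrrb, which both cultures carried, belongs to the same network.

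The libraries matched their labels for the added factor. Pou5f1 was listed at 0 FPKM in JGE and stood at 1569.9 in JGEO. Jdp2 was at 1721.8 and 1290.1 FPKM and Esrrb at 561.2 and 384.1, so both libraries carried these factors. Glis1 was at 0.12 FPKM in JGE and 0.15 in JGEO, so its delivery could not be checked from this table. Sall4, which neither culture was given, was at 2.09 and 28.9 FPKM. The numbers of reads behind the FPKM values are unknown. The libraries had 22634 and 22721 rows above 0. Y-linked genes, a mark of the sex mix of the MEFs, were lower in JGEO, with a sum of 8.53 FPKM in JGE and 1.55 in JGEO over 4 genes. After GC adjustment 0 of the 3 tested were lower by 2-fold, with a median of -0.44, and their part in the results was not tested. With 1 library a side there is no replicate and no test, and "higher" or "lower" below means a change of at least 2-fold, a difference of 1 or more in log2(FPKM + 1), unless only values are given. In bulk RNA, fewer cells of a type and less RNA per cell cannot be told apart.

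Addition of Oct4 was accompanied by a higher level of 1349 genes, 9.56% of those tested, and a lower level of 1656, or 11.7%. The other genes stayed within 2-fold, and the median difference over all 14116 was 0.04. Large increases included those of Dppa5a, Trh, Mylpf and Nanog, and large decreases those of S100g, Fxyd2 and Vnn1.

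**Figure D1:**
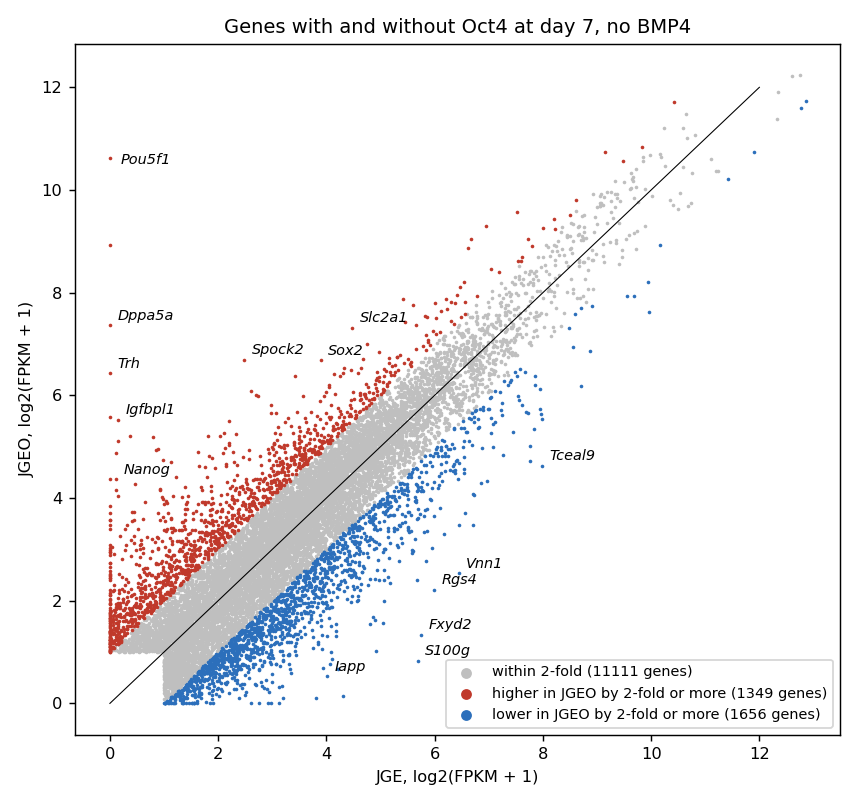
Level of each of the 14116 genes in JGE (x axis) and JGEO (y axis), both as log2(FPKM + 1), 1 library each, with the line of equal levels. The 1349 genes higher in JGEO by 2-fold lie above the grey band and the 1656 lower genes below it, and Pou5f1, Dppa5a and Trh stand at 0 in JGE.

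The size of the difference followed the base composition of the transcript. Over the 13314 genes with a known transcript sequence (94.3%), the 10% of genes with the lowest GC content, a median of 40.1%, had a median difference of -0.72, and the 10% with the highest one of 0.41. Accordingly, 34.6% of the most GC-poor genes were lower and 17.7% of the most GC-rich were higher. Genes that were lower had a median GC content of 44.5%, those that were higher 53.8% and all genes 50.3%. Transcript length moved as well, with medians of 3709 bases for lower, 2674 for higher and 3261 for all genes. In the pair with BMP4 the same trend ran only from -0.12 to 0.20, and in JGESO against JGES it ran from -1.81 to 0.87. By their labels JGESO and JGES also differ in RNA type, polyA and total RNA. The part of base composition in the changes was not tested. As an alternative, each difference was taken relative to the median of the genes of like GC content (20 groups), and this left 1090 genes higher and 1200 lower of 13314. Values called GC-adjusted below come from that step.

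**Figure D2:**
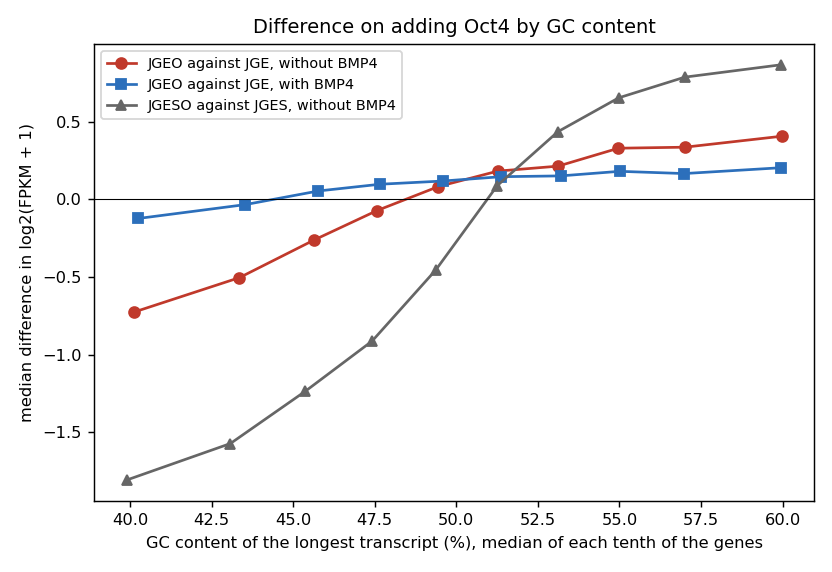
Median difference in log2(FPKM + 1) (y axis) for each 10% of the genes ordered by transcript GC content (x axis, %), for the 3 pairs of libraries that differ by Oct4. JGESO and JGES also differ in RNA type, polyA and total RNA. JGEO against JGE runs from -0.72 to 0.41 without BMP4 and from -0.12 to 0.20 with it.

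Of the 15 pluripotency transcription factors tested, 12 were higher in JGEO than in JGE, where 9.56% of all genes were, and none was lower. The median difference of the list was 2.79, and GC-adjusted 2.64 with the same count of 12. Nanog, the homeodomain factor that stabilises naive pluripotency, was at 0.08 FPKM in JGE and 19.6 in JGEO. Utf1, a chromatin factor of embryonic stem cells, went from 0.11 to 33.6 FPKM, and Tfcp2l1, a naive-state factor, from 0.38 to 18.3. These genes were near the bottom of the scale without Oct4. Sox2, the partner of Oct4, was already at 13.9 FPKM in JGE and reached 102.1 in JGEO, and the Krüppel-like factor Klf2 went from 3.09 to 35.9. Nr0b1 went from 3.82 to 28.7 FPKM and Klf4 from 9.20 to 26.4. The 3 factors that stayed within 2-fold were Klf5 (13.3 and 20.2 FPKM), Tbx3 (6.57 and 11.6) and Foxd3 (1.46 and 3.06).

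The effectors and markers of pluripotency followed, with 15 of 15 tested higher, where 9.56% of all genes were. Their median difference was 2.95, or 5.02 with a pseudocount of 0.1, since several members are listed at 0 in JGE. Dppa5a, an RNA-binding protein of embryonic stem cells that lies at chr9:78367052-78368177 (mm10), was listed at 0 FPKM in JGE and at 164.2 in JGEO, a difference of 7.37. Also listed at 0 in JGE were Gdf3 (13.4 FPKM in JGEO), Dppa3 (10.9), Tdgf1 (6.76), L1td1 (6.72) and Fgf4 (6.42), and Dnmt3l was as well. Lin28a, which blocks maturation of let-7 miRNAs, went from 0.81 to 29.5 FPKM. Tdh, the threonine dehydrogenase that mouse embryonic stem cells depend on, went from 9.74 to 81.7, and Mybl2, a cell-cycle factor, from 2.50 to 36.0. Fbxo15 remained under 1 FPKM in both libraries and was not tested. The level of several of these genes was still low in JGEO, as with Prdm14 (1.61 FPKM), Tcl1 (1.59) and Nr5a2 (1.39).

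**Figure D3:**
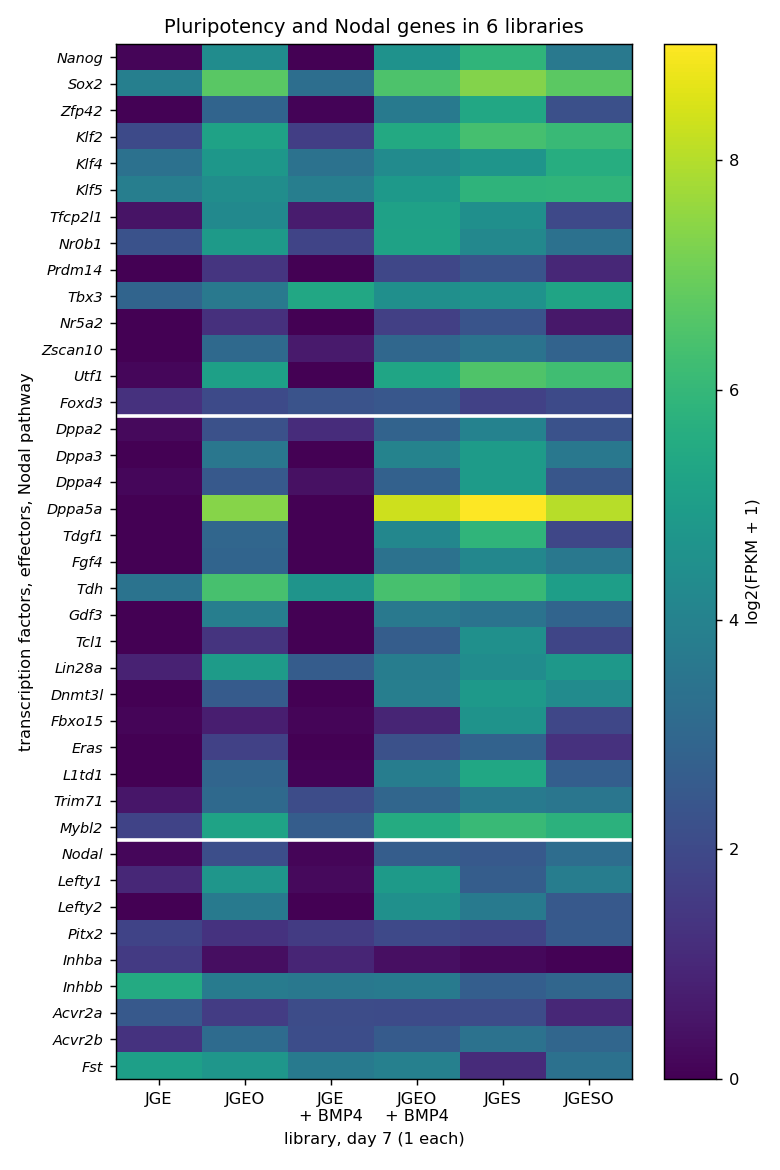
Level of 14 pluripotency transcription factors, the pluripotency effectors and Nodal pathway genes (rows) in 6 day 7 libraries (columns, 1 each), as log2(FPKM + 1) by colour. The JGE columns are dark for most rows, Nanog being at 0.08 FPKM without and listed at 0 with BMP4, and the JGEO columns are brighter in both media.

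In the reference, the promoter of Nanog holds a joined SOX and POU element. Promoters here are the 250 bases before to 50 after a gene's start, from RefSeq sequences of GRCm38.p6, which has the same chromosome sequences as mm10. Among the 10792 tested genes with such a promoter, Nanog was the only one with the exact element searched, CATTGT followed 1 base on by ATGCAAA, on either strand. A further 5 stretches are shown because they hold the octamer ATGCAAAT, on either strand, in the 250 bases before the start of the genes with the largest increases among those that do and that have an FPKM of at least 5 in JGEO. Each line runs 5′ to 3′ on the strand of the gene, with the element in capitals. The Nanog stretch is chr6:122707384-122707457 on the plus strand, and the others are chr5:147307359-147307426 (minus), chr7:19577146-19577213 (plus), chr8:43307158-43307225 (minus), chrX:7878153-7878220 (plus) and chr17:15376005-15376072 (minus), in the order printed.
Nanog: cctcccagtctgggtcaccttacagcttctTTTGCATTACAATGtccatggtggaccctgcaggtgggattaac
Cdx2: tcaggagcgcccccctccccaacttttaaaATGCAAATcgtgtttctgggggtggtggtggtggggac
Zfp296: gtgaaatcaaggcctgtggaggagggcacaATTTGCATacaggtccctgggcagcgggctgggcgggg
Zfp42: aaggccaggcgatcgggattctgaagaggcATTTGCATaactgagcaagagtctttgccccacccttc
Pim2: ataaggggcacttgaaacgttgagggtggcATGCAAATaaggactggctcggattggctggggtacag
Dll1: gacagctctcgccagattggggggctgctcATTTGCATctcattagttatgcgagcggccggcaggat

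The choice of the octamer genes shown used their levels in both libraries, so these are given as a description. Cdx2, the caudal factor described below, was listed at 0 FPKM in JGE and at 9.47 in JGEO. Zfp296, a zinc-finger gene of embryonic stem cells, went from 0.33 to 10.7 FPKM, and Zfp42, known as Rex1 and a marker of naive cells, from 0.05 to 6.56. Pim2, a survival kinase, went from 3.58 to 31.8 FPKM, and the Notch ligand Dll1 from 0.24 to 7.47. The promoter of Pim2 holds the octamer at 2 places, of which the one nearer the start is printed. The octamer stood in 34 of the 965 promoters of genes that were higher (3.52%), in 18 of 1268 of genes that were lower (1.42%) and in 182 of all 10792 (1.69%). Among genes selected after GC adjustment the shares were 3.10% of 807 and 1.93% of 935. The 25 genes that were higher, had at least 5 FPKM in JGEO and held the octamer include 4 histone H2A genes (H2ac4, H2ac6, H2ac8 and H2ac12), which were at 1.47 to 3.26 FPKM in JGE and 5.35 to 9.17 in JGEO. The SOX element CATTGTT was in 3.01% of the promoters of genes that were higher, 2.37% of those that were lower and 2.26% of all. The ESRRB element TCAAGGTCA was in 0 of 965, 3 of 1268 and 35 of 10792. A match of letters is a description and no sign of binding.

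Markers of the formative and primed epiblast, the later pluripotent states, were partly higher, 5 of 8 tested, where 9.56% of all genes were. Their median was 1.08, and 4 of 8 were higher after GC adjustment. Sox3 went from 0.24 to 10.2 FPKM, the de novo DNA methyltransferase Dnmt3b from 1.11 to 12.02 and Zic2 from 8.68 to 24.4. Fgf5 and Otx2, which mark the primed epiblast, were under 1 FPKM in both libraries. Of the Nodal pathway, 5 of 10 genes were higher and 2 lower, where 9.56% and 11.7% of all genes were. The ligand Nodal went from 0.12 to 3.44 FPKM and its co-receptor Tdgf1 from 0 to 6.76. The feedback inhibitors went furthest, Lefty1 from 0.98 to 25.6 and Lefty2 from 0 to 12.1, and the receptor Acvr2b went from 1.48 to 7.84. The activin subunits changed the other way, Inhbb from 44.5 to 12.3 FPKM and Inhba from 1.89 to 0.26, though Inhba was within 2-fold after GC adjustment (-0.55).

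All 3 Cdx genes, the caudal homeobox factors that pattern the trunk and hindgut, were higher: Cdx1 went from 0.29 to 35.8 FPKM, Cdx2 from 0 to 9.47 and Cdx4 from 0 to 5.30. The grouping by Cdx was made after their values were seen. The ligand Wnt8a went from 0.08 to 28.4 FPKM, Wnt3 from 1.09 to 14.0, and T, the brachyury factor of the primitive streak, from 0 to 2.86. Gbx2, a homeobox gene of the hindbrain and of naive cells, went from 0.74 to 35.4. Other genes of the primitive streak were lower, Eomes at 6.07 and 1.56 FPKM and Mixl1 at 1.80 and 0.18. In all, 3 of 7 streak genes were higher and 2 lower, beside 9.56% and 11.7% of all genes.

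Of the Hox genes, 4 of the 14 listed were higher and none lower, where 9.56% and 11.7% of all genes were. Their median was 0.78, and 2 were higher after GC adjustment. Over all 37 Hox genes tested, a wider set chosen after the values were seen, 15 were higher and 1, Hoxa13, lower, or 13 and 3 after GC adjustment. The Hox genes were also divided by position in the clusters, after their values were seen. In groups 1 to 8, the 3′ genes used in the anterior and trunk embryo, 23 of 23 tested genes were above JGE, 13 of them by 2-fold. Their median was 1.19, and of all 14116 genes 7306 were above JGE. In groups 9 to 13, the 5′ genes of the posterior trunk and limb, 7 were above and 7 below JGE, with a median of 0.08, or 0.62 over the 7 genes that reach 5 FPKM. Hoxb1 went from 0 to 10.2 FPKM, Hoxa2 from 0.57 to 3.89, Hoxd4 from 2.43 to 9.93 and Hoxb8 from 4.91 to 16.98. Hoxa13 went from 1.68 to 0.28 FPKM and Hoxb9 from 21.6 to 17.9. After GC adjustment 11 of the 23 genes of groups 1 to 8 remained past 2-fold, and the median was 0.83.

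Neural genes were higher in 7 of 10 tested, where 9.56% of all genes were, and none was lower. The median difference was 2.19, or 3.49 with a pseudocount of 0.1. Sox1, a factor of the early neural plate, went from 0.84 to 29.8 FPKM and Fabp7, a fatty-acid-binding protein of radial glia, from 0.91 to 16.8. Tubb3, the tubulin of neurons, went from 3.36 to 30.4 FPKM, and Stmn2, a microtubule regulator of neurons, from 0.36 to 10.9. Elavl3, an RNA-binding protein of neurons, went from 0.03 to 1.68 FPKM. Insm1, a zinc-finger factor of neuroendocrine progenitors, went from 0.10 to 15.4. In contrast, Pax6 was at 3.74 and 1.88 FPKM, Nes at 12.9 and 14.98 and Map2 at 3.20 and 2.37, all within 2-fold. The list's defining late markers Neurod1 and Dcx stayed under 1 FPKM.

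WNT targets were above JGE in 7 of 8 tested and past 2-fold in 3, where 9.56% of all genes were higher. Their median was 0.93, or 0.55 after GC adjustment with the same count of 3. Axin2, the feedback inhibitor of the pathway, went from 23.5 to 64.85 FPKM, Notum from 12.02 to 34.3 and Lef1 from 8.27 to 18.1. Of the BMP targets 2 of 9 were higher, beside 9.56% of all genes, and none was lower, with a median of 0.36. Msx1 went from 10.3 to 35.7 FPKM and Id4 from 6.98 to 18.9, while Id1 was at 48.8 and 81.1, Id3 at 175.4 and 285.2 and Smad7 at 26.2 and 12.7, just within 2-fold. GC-adjusted, Smad7 passed 2-fold at -1.31. Of the BMP ligands, receptors and antagonists, 4 of 10 were lower, where 11.7% of all genes were. They were Bmp7 (12.7 and 5.13 FPKM), Bmpr1a (12.8 and 4.54), Bmpr2 (13.3 and 4.45) and the antagonist Grem1 (13.4 and 1.22). The receptor transcripts are GC-poor, with 41.3% and 41.0%, and GC-adjusted differences of -0.66 and -0.74.

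Cell cycle genes were higher in 12 of 16 tested, against 9.56% of all genes, with a median of 1.65 that became 1.57 after GC adjustment with the same count. The replication genes Mcm5 (10.9 and 62.3 FPKM), Mcm2 (18.8 and 85.0) and Pcna, the sliding clamp (63.7 and 222.4), were higher. The mitotic kinases Plk1 (9.98 and 50.1 FPKM) and Aurkb (7.18 and 32.5) were higher as well, as was Cdk1 (7.70 and 31.3). Mki67 and Top2a, the usual markers of dividing cells, stayed within 2-fold, at 1.72 and 3.30 FPKM and at 8.33 and 7.67. Ccnd1, the cyclin D of growth-factor signalling, was at 176.9 and 131.2. In a wider set of 20 licensing genes chosen after the values were seen, 10 were higher and 1, Orc4, lower, or 11 and 0 after GC adjustment. Of the DNA methylation genes 5 of 9 were higher, with Uhrf1 at 16.6 and 84.7 FPKM and the maintenance enzyme Dnmt1 at 14.4 and 40.1.

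Senescence and p53 genes were lower in 5 of 10 tested and higher in 2, where 11.7% and 9.56% of all genes were. The p53 targets Ccng1 (214.7 and 31.5 FPKM) and Mdm2 (34.0 and 8.47) were lower, as were the cell cycle inhibitor Cdkn2b (68.2 and 24.5) and Gdf15 (40.0 and 18.3). Trp53 itself, which encodes p53, was at 46.0 and 100.1 FPKM, and its target Bbc3 at 2.64 and 7.55. Cdkn1a, the p21 inhibitor, was at 706.5 and 413.5 and Cdkn2a at 109.6 and 83.5, both within 2-fold. GC-adjusted, 6 of 10 were lower and none higher, where 1200 of all 13314 genes were lower.

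Glycolysis genes had a median difference of 0.77, or 0.51 after GC adjustment. Of 14 tested, 4 were higher and 1 lower, where 9.56% and 11.7% of all genes were, and 3 and 1 after GC adjustment. The glucose transporters stood out, Slc2a1 at 21.3 and 158.6 FPKM and Slc2a3 at 5.62 and 62.7. Ldha, lactate dehydrogenase, was at 210.1 and 527.0 and Eno1 at 295.8 and 695.1, whereas hexokinase 1, Hk1, was lower at 44.5 and 20.3. After GC adjustment Eno1 was within 2-fold, at 0.87. The 13 proteins encoded in mitochondrial DNA, a group added after the values were seen, were all below JGE, with differences from -1.21 to -0.14. Of them 4 were past 2-fold, where 11.7% of all genes were lower. None of the 13 has a GC-adjusted value, so the part of base composition in these differences was not tested. Cytosolic ribosomal proteins, also added, were above JGE in 69 of 80, where 7306 of all 14116 genes were. Their median was 0.54, or 0.41 after GC adjustment and 0.33 after adjustment for GC content and length. Of these 80, 7 were higher by 2-fold, a share near the 9.56% of all genes, and 4 lower.

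The fibroblast programme was lower in part. Of 21 matrix and contractile genes, 20 were below JGE, 7 by 2-fold, where 11.7% of all genes were, and none was higher. The median difference was -0.72, and 10 of 21 passed 2-fold after GC adjustment. The smooth-muscle genes Tagln (38.8 and 7.25 FPKM) and Acta2 (15.5 and 2.63) were among the lowest in ratio, with S100a4 (62.3 and 11.6), Postn (23.0 and 3.29), the crosslinking enzyme Lox (40.1 and 10.0) and Thy1 (44.6 and 14.8). Collagen genes were within 2-fold, Col1a1 at 293.4 and 151.2 FPKM, Col1a2 at 214.1 and 128.4 and Col3a1 at 118.1 and 116.9, but Col1a1 and Col1a2 passed it after GC adjustment, at -1.32 and -1.07. The summed level of the list was 1929 FPKM in JGE and 1198.7 in JGEO.

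Of 11 mesenchymal transcription factors tested, 2 were higher and 2 lower, beside 9.56% and 11.7% of all genes. Twist2 was at 12.5 and 30.2 FPKM and Osr1 at 9.92 and 30.04, whereas Prrx1 was at 22.6 and 9.40 and Snai2, the Slug repressor, at 11.04 and 4.60. The last pair is GC-poor, at 43.6% and 42.6%, and was within 2-fold after GC adjustment (-0.70 and -0.59), where Prrx2 passed it at -1.25. Twist1 (70.8 and 74.2 FPKM) and Snai1 (16.3 and 15.6) were nearly level. On the epithelial side 5 of 16 were higher and 3 lower, where 9.56% and 11.7% of all genes were. Epcam, an adhesion molecule of epithelia and pluripotent cells, went from 1.53 to 15.1 FPKM and E-cadherin, Cdh1, from 5.21 to 14.3. Krt19 went from 71.0 to 8.86 and Cldn4 from 19.2 to 5.97. After GC adjustment 3 epithelial genes were higher and 4 lower.

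**Figure D4:**
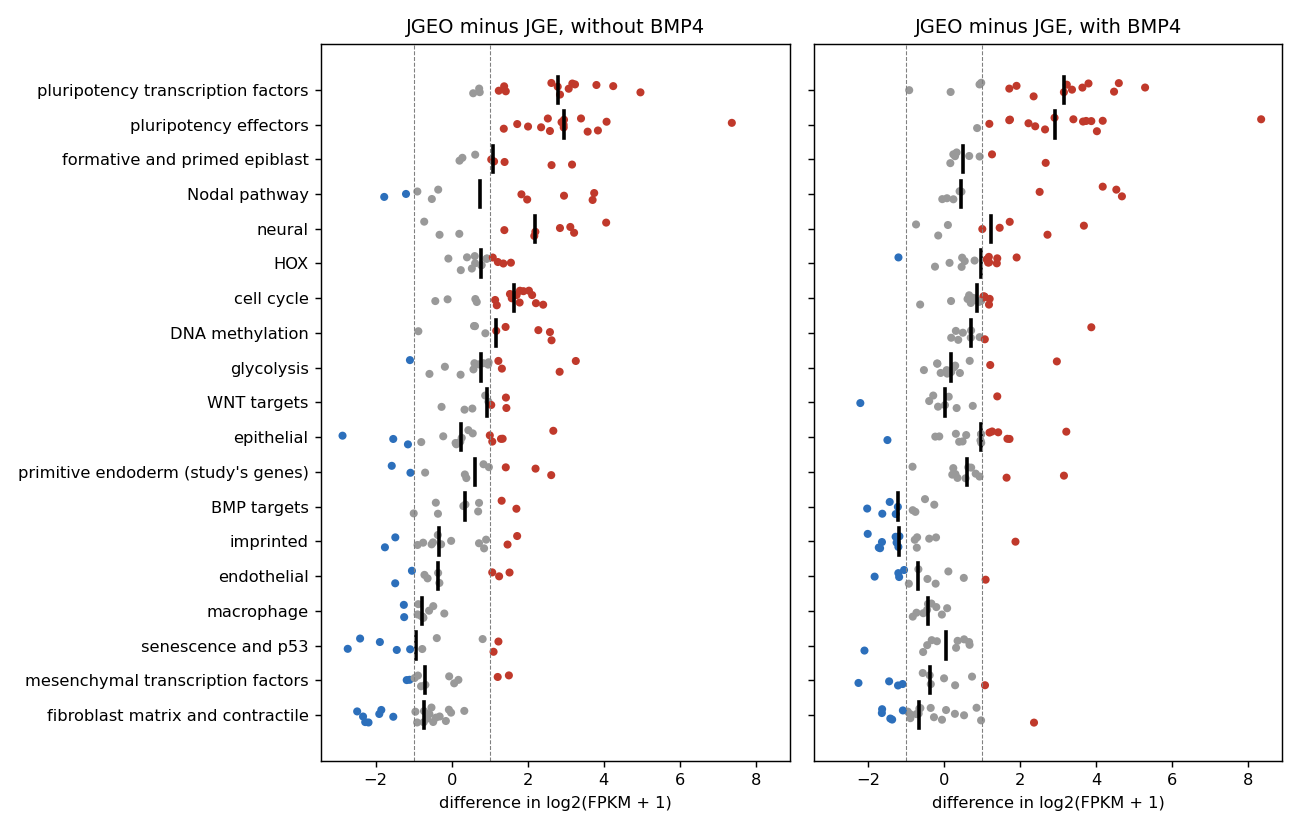
Difference in log2(FPKM + 1) between JGEO and JGE (x axis) for each tested member of 19 gene lists, without BMP4 (left) and with it (right). Each point is a gene, the black bar is the list's median, and dashed lines mark 2-fold. The pluripotency lists have medians of 2.79 and 2.95 without BMP4, and the BMP targets one of 0.36 without and -1.22 with it.

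Markers of other lineages gave no direction shared by all lists. Over all genes 9.56% were higher and 11.7% lower. Of the 12 primitive endoderm genes that the study names, 10 were tested, 3 were higher and 2 lower, with a median of 0.61, or 0.34 after GC adjustment and 0.37 over all 12. These genes were chosen by the study on cells of this system. Pth1r went from 2.47 to 20.3 FPKM, Cited1 from 0.70 to 6.87 and Klf4, counted above as well, was higher. Gata6 was lower, with a difference of -1.08, and Eva1a went from 7.09 to 1.72, while Gata4 and Sox17 were under 1 FPKM in both libraries. Endothelial markers were higher in 3 of 9 and lower in 2, among them Egfl7 at 1.51 and 4.97 FPKM and Kdr at 10.9 and 3.25, and 2 were higher and 1 lower after GC adjustment. Their sum was 37.2 FPKM in JGE and 27.6 in JGEO. Macrophage markers were all below JGE, 10 of 10 tested, 2 of them by 2-fold and 5 after GC adjustment. Their sum was 204.2 and 109.3 FPKM, of which the lysozyme gene Lyz2 made up 116.3 and 66.1, and the defining markers Ptprc and Itgam were under 1 FPKM. Their part in the decreases was not tested. Imprinted genes were higher in 2 of 14 and lower in 2, near the shares of all genes (9.56% and 11.7%), with Peg10 at 49.4 and 165.5 FPKM and Cdkn1c, the p57 inhibitor, at 823.2 and 243.5.

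The other lists gave counts in both directions or few genes past 2-fold, where 9.56% of all genes were higher and 11.7% lower. Trophoblast genes were higher in 3 of 12 and lower in 4, with Tfap2c at 2.61 and 11.7 FPKM and Krt18 at 25.5 and 8.52. Other genes of extraembryonic endoderm were lower in 1 of 7, near the share of all genes: the receptor Pdgfra, at 21.9 and 3.68. AP-1 and immediate early genes were lower in 2 of 9, beside 11.7% of all genes. These were Fos at 14.7 and 6.12 FPKM and Fosl1 at 8.86 and 2.26. Of the FGF and ERK genes 3 of 12 were higher, among them Etv5 (34.8 and 98.4 FPKM), and 1 was lower, the feedback inhibitor Spry1 (109.8 and 40.1). Of all genes 11.7% were lower, and beside that share cholesterol synthesis genes were lower in 2 of 12, Hmgcs1 at 83.2 and 25.3 FPKM and Idi1 at 26.1 and 6.199, and interferon genes in 2 of 9, with Ifit1 at 11.05 and 2.50. Few genes of the remaining lists were tested. Of the keratinocyte genes 2 of 4 were higher and 2 lower, with Perp at 46.9 and 6.90 FPKM. Muscle genes other than Mylpf gave none higher and 2 lower, adipocyte genes 2 lower of 3, blood genes 1 lower of 3, and germline genes 1 higher, Rhox5 (1.02 and 10.7 FPKM), and 1 lower of 2.

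The genes with the largest increases among those with at least 5 FPKM also included Trh, which encodes the precursor of thyrotropin-releasing hormone, and Mylpf, a fast-muscle myosin light chain. Trh was listed at 0 FPKM in JGE and at 85.2 in JGEO, and Mylpf at 0 and 46.6. Igfbpl1, a secreted IGF-binding-like protein, went from 0.12 to 45.0 FPKM. Spock2, a matrix proteoglycan, went from 4.59 to 102.8 and Rbmxl2, a germ-cell RNA-binding protein, from 0.09 to 16.9.

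The largest decrease on the log2(FPKM + 1) scale was that of S100g, the calcium-binding protein calbindin-D9k at chrX:162961992-162964599 (mm10), which went from 50.5 to 0.78 FPKM. Fxyd2, a subunit of the sodium pump, went from 52.9 to 1.53 and Vnn1, a pantetheinase, from 85.9 to 4.78. The GC-adjusted differences of these 3 genes were -4.78, -4.68 and -3.61. Rgs4, a brake on G-protein signalling, went from 62.6 to 3.63 FPKM and Cgas, the cytosolic DNA sensor, from 29.2 to 1.04. Tceal9 was the most abundant gene of this group, at 252.0 and 23.7 FPKM, and its transcript has a GC content of 40.7%. The vasoconstrictor peptide Edn1 (49.9 and 4.27 FPKM), the annexin Anxa1 (28.9 and 2.09) and the hormone Iapp (15.1 and 0.45) were lower as well. Gsta1, Umod, Clca3a1, Nrk, Dynlt3 and Prl2c3 complete the 15 largest, with differences from -3.72 to -3.24. The order depends on the pseudocount: with 0.1 in place of 1, Gsta1 led at -6.26, ahead of S100g at -5.85. Prl2c2 and Prl2c3 are near copies that can share reads, so each value is uncertain.

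With BMP4 in the medium, the same addition of Oct4 gave 979 genes higher of 13957 (7.01%) and 553 lower (3.96%), in libraries that the comparison above did not use. Of the 1259 genes that were higher without BMP4 and tested in both, 522 (41.5%) were higher with BMP4, and 11 were lower. The 522 made up 53.3% of all genes that were higher there. Of the 1519 that were lower without BMP4, 237 (15.6%) were lower with it, or 42.9% of all lower genes there, and 8 were higher. After GC adjustment these shares were 36.0% of 1036 and 27.04% of 1113. The same sign was found in 92.8% of the genes that were higher, where 58.7% of all genes were above 0, and in 88.8% of the genes that were lower, where 41.3% of all were below.

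The lists differed in how closely they matched between the media. Pluripotency transcription factors had a median of 3.15 with BMP4, and 11 of 15 were higher there, where 7.01% of all genes were. Nanog was listed at 0 in JGE and at 23.1 FPKM in JGEO. Cell cycle genes had 0.86 with BMP4 against 1.65 without. For glycolysis genes the medians were 0.18 with and 0.77 without BMP4, for cytosolic ribosomal proteins 0.04 and 0.54, and for the licensing genes 0.37 and 0.92. Of the Hox genes of groups 1 to 8, 20 of 20 tested were above JGE with BMP4 too. Neural genes had a median of 1.23 with BMP4, and Sox1 was at 2.32 and 9.98 FPKM, Tubb3 at 8.57 and 9.25 and Fabp7 at 2.94 and 2.54. WNT targets had a median of 0.02 with BMP4, with 1 of 9 higher and 1 lower, beside 7.01% and 3.96% of all genes. Senescence and p53 genes had one of 0.06, with 1 of 10 lower. BMP targets had a median of -1.22, with 5 of 9 lower, and Id1 was at 187.7 and 60.1 FPKM. The decreases of S100g (16.2 and 3.02 FPKM), Fxyd2 (14.4 and 1.76) and Iapp (47.9 and 1.78) were found there as well. The difference between the media was not tested.

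In cells that carried Sall4, JGESO against JGES without BMP4, 2347 of 14633 genes were higher (16%) and 4808 lower (32.9%). By their labels JGES is a total RNA library and JGESO a polyA library, so RNA type and Oct4 cannot be told apart there. JGES cells, which were not given Oct4, already had Pou5f1 at 223.9 FPKM, against 369.6 in JGESO. Of the 1349 genes that were higher in JGEO, 1219 were tested there, 271 (22.2%) were higher and 165 lower. Of the 1656 lower genes, 1407 were tested, 977 (69.4%) were lower and 87 higher, but only 283 of 1000 (28.3%) were lower when both comparisons were GC-adjusted, where 13.3% of all genes were. Pluripotency transcription factors had a median of -0.61, with 0 of 15 higher and 6 lower, or -1.09 with 0 higher and 8 lower after GC adjustment. Nanog was at 59.0 FPKM in JGES and 11.5 in JGESO, and Dppa5a at 513.9 and 262.3. S100g went the other way from JGEO, at 14.7 and 159.3 FPKM. The study's primitive endoderm genes had a median of 2.24 there, with 11 of 12 higher, or 1.98 and 9 of 12 after GC adjustment.

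Single cells of day 7 JGES cultures without BMP4, 8685 cells from 1 sample with the authors' cell types, show where the same genes were used. The 4 types were intermediate state (6211 cells), pluripotent (1825), endothelial (507) and a type deposited as ParE (142), and the UMIs of each type were summed and scaled to its total (CPM). Of the genes that were higher in JGEO and had at least 10 CPM in a type, 387 of 657 (58.9%) had their highest level in the pluripotent cells, against 30.6% of all 7900 tested genes and 20.04% of the 923 that were lower. Of the 657, a further 101 were highest in intermediate, 117 in ParE and 52 in endothelial cells. Dppa5a was at 6305.5 CPM in pluripotent and 261.3 in intermediate cells, Mylpf at 663.5 and 32.9, Trh at 150.9 and 27.2 and Rbmxl2 at 120.3 and 4.36. Of the neural genes, Stmn2 was at 372.02 CPM in pluripotent and 38.0 in intermediate cells, and Tubb3 at 22.1 and 2.06, with 22.8 in endothelial cells. Other increased genes were higher in intermediate than in pluripotent cells, among them Msx1 (51.4 and 7.38 CPM), Axin2 (30.6 and 13.7) and Notum (24.2 and 7.51). Sox1 and Wnt8a were under 2 CPM in both types and Spock2 under 10, too low to compare. Of the decreased genes, S100g was at 1097.3 CPM in endothelial and 1218.3 in ParE cells but 14.9 in pluripotent cells. Fxyd2 was highest in intermediate cells, at 118.5 CPM. GC-adjusted, 13.2% of 591 lower genes were highest in pluripotent cells.

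**Figure D5:**
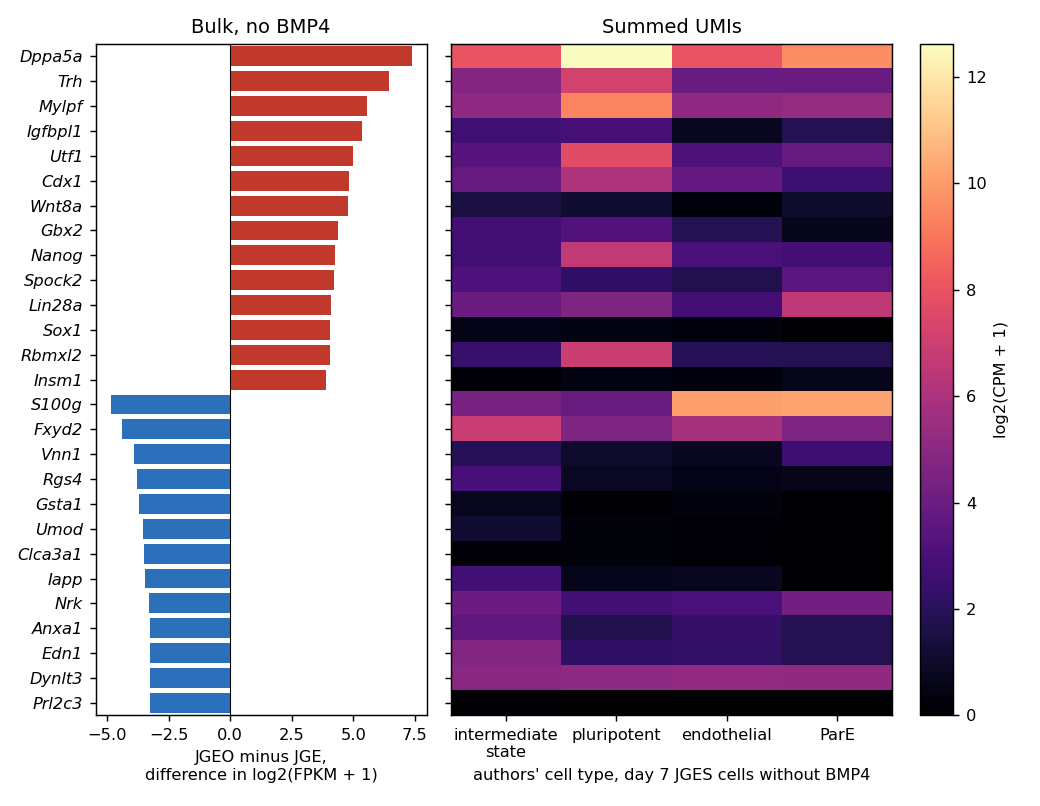
Left, difference in log2(FPKM + 1) between JGEO and JGE for the 27 of 30 named genes in the single-cell table. Right, the level of each in the authors' 4 cell types of day 7 JGES cells without BMP4, as log2(CPM + 1) of summed UMIs, 1 sample. Dppa5a, Mylpf and Utf1 are brightest in pluripotent cells, and S100g in endothelial and ParE cells.

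At day 0 of JGES reprogramming, in 1 total RNA library of a table normalized separately, 491 of 1289 genes that were higher in JGEO (38.1%) had at least 5 FPKM, against 987 of 1601 lower genes (61.6%) and 7902 of all 13588 (58.2%). The genes that were higher had a median of 2.69 FPKM at day 0 and 2.25 in JGE, and those that were lower 7.73 and 8.57. Nanog, Dppa5a, Trh, Utf1 and Sox1 were listed at 0 at day 0. Of the decreased genes, Anxa1 (110.0 FPKM), Edn1 (88.1), Clca3a1 (39.7), Dynlt3 (29.2) and Vnn1 (26.1) were present at day 0, whereas S100g, Gsta1, Umod, Iapp and Prl2c3 were listed at 0 there.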

How the data were processed

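Of the bulk RNA-seq table of 8 day 7 libraries, 6 were used. Per the labels, libraries were made from polyA RNA (JGES from total RNA) and sequenced with paired 150-base reads. By the submitters' processing notes, the authors trimmed reads with Trim Galore 0.6.4, mapped them to mm10 with HISAT2 2.2.1 and deposited FPKM values from StringTie 2.2.1, without read counts, so depth is unknown and no interval is given. Of 37108 rows, 1520 short RNAs and 874 older symbols of a listed gene were left out, the latter a choice made after the table had been seen.

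Differences are JGEO minus JGE of log2(FPKM + 1), and a call needs 2-fold and 1 FPKM or more on a side. Counts of UMIs per gene and cell, deposited by the authors without normalization, were summed by their cell types, with no doublet removal here. The single-cell table also holds 10749 columns of MEF and ESC cells of other work, which were not used. GC content and length are those of the longest GENCODE vM21 transcript (GRCm38). Named genes are the 15 largest increases and 15 largest decreases that reach 5 FPKM on a side, without delivered factors, predicted and Y-linked genes, together with the members of 34 gene lists. A few of these genes are counted but not reported here by name. The comparison, its genes and lists were chosen with earlier results of these data known. The code for the calls and the GC adjustment was run on a simulated pair, with changes placed at random and a linear GC trend. That run checks the code. It cannot show the noise of these libraries, or whether the adjustment removes real differences that follow GC content. Python 3.11.15, numpy 2.4.6 and pandas 2.3.3 were used. Alternatives were another pseudocount, other minimums, 2 scalings, a 4-fold threshold, a shorter promoter and, added after the data had been seen, adjustments for GC content and length, older symbols kept and a joined SOX and POU element.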

Additional observations from a re-analysis of the deposited data

Results flagged for a closer look

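Among 560 genes, the named genes and list members, 5 passed 2-fold in opposite directions when Oct4 was added without and with BMP4. Over all genes tested in both media, 11 of the 1259 that were higher without BMP4 were lower with it. Of the 1519 that were lower without BMP4, 8 were higher with it. The difference between the media was not tested, and each value comes from 1 library a side. Evx1, a homeobox gene of the posterior embryo, had a difference of 1.56 without BMP4 and -1.50 with it, with FPKM of 0.04 and 2.09 without and 5.82 and 1.41 with BMP4. Fgfr3 had 1.10 and -1.05, with 0.61 and 2.45 FPKM without and 6.204 and 2.48 with BMP4. Peg10, an imprinted gene derived from a retrotransposon, had 1.72 and -1.20, at 49.4 and 165.5 FPKM without and 433.3 and 187.6 with BMP4. Hoxc9 had 1.56 and -1.20, at 2.42 and 9.07 FPKM without and 9.98 and 3.77 with BMP4. The cardiac actin Actc1 went the other way, at -1.12 and 1.42, with 6.16 and 2.30 FPKM without and 0.24 and 2.31 with BMP4.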

How the results depend on the processing

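All 30 named genes kept their direction and stayed past 2-fold under each alternative that gave them a value (29 of them under the GC adjustments, since 1 has no transcript sequence), but the size of their differences moved by 0.5 or more in 54 values and by less in 154, mostly with a pseudocount of 0.1 (Dppa5a 10.68, Gsta1 -6.26) or on rescaling. The count of higher genes ranged from 926 to 1913 and that of lower genes from 1141 to 2536 under all settings with the 2-fold threshold, the highest lower count coming from rescaling without short RNAs and delivered factors. At 4-fold, 228 genes were higher and 206 lower. Median-ratio scaling (JGEO over JGE 1.09) gave 1124 and 1902, and adjustment for both GC content and length 1091 and 1170. Lists with a median of 1 or more and at least 5 tested genes kept their sign in each setting run. Medians that moved by 0.5 or more were those of pluripotency transcription factors (3.73), pluripotency effectors (5.02) and neural genes (3.49) with a pseudocount of 0.1, of effectors (3.67) and neural genes (2.704) on rescaling, and, with a minimum of 5 FPKM, of the Nodal pathway (2.40), trophoblast (0.46), epithelial (-0.80), mesenchymal factors (0.0021), neural genes (2.99) and the Hox genes of groups 9 to 13 (0.62, 7 genes). The first 5 kept only 6, 7, 7, 8 and 6 genes, and the trophoblast, epithelial and mesenchymal medians changed sign, with fewer genes tested. Medians near 0 also changed sign for the FGF and ERK (0.06 to -0.29 GC-adjusted), interferon and 5′ Hox lists. The shares that passed 2-fold with BMP4 too were 44.5% of higher and 22.0% of lower genes with a pseudocount of 0.1, and 36.0% and 27.04% GC-adjusted. No paired analysis was possible because the groups compared share fewer than 2 replicate numbers, with 1 library each. Unknown read numbers limit every gene under a few FPKM.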
